A study of Mus musculus with 2 samples.

Results

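In lungs of mouse bone marrow chimeras, 537 of 2674 Tgfbr2-KO donor cells (20.1%, exact binomial interval 18.6 to 21.7) carried high counts of interferon-inducible genes and no transcript of Nos2, the gene for inducible nitric oxide synthase. The control pool held 2 such cells of 1896 (0.105%, 0.0128 to 0.381), so that 539 of all 4570 kept cells were members. A cell was a member if its unique molecular identifiers (UMIs, each a captured transcript) of Ly6a, Ly6i, Gbp2 and Iigp1 summed to at least 15, if it had 0 UMIs of Nos2, and if 8 cell cycle genes together gave fewer than 8 UMIs. Kept cells had no fewer than 1000 gene UMIs and 500 genes, with mitochondrial transcripts making up no more than 10%. The members were thus picked by their own counts, and every difference between them and the remaining cells is given as a description.

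The study asked how lung monocytes and macrophages differ when donor myeloid cells lack the receptor for transforming growth factor beta. The Tgfbr2-KO group received LyzM-Cre Tgfbr2 fl/fl bone marrow and the control group Tgfbr2 fl/fl bone marrow, both CD45.1-CD45.2+. All hosts were IM-DTR mice of the CD45.1+CD45.2+ type, a strain whose interstitial macrophages are killed by diphtheria toxin. They had been irradiated, and each was given 50 ng of that toxin 10 days before sacrifice. Sorted cells were CD45.1-CD45.2+, Ly6G-, SiglecF-, CD11b+, SSClo and CD64+, so they were of donor origin, and the gate removes neutrophils and alveolar macrophages. LyzM-Cre acts in myeloid cells through the Lyz2 locus, so the deletion is not limited to lung macrophages. Suspensions were pooled from 5 chimeric mice per the design text, which does not state whether this number applies to each group, and ages and sexes are not given in the sources used here. Cells of the groups carried hashtag antibodies TotalSeq-B0303 (Tgfbr2-KO) and TotalSeq-B0301 (control) and were run together as 1 droplet library. Each genotype was therefore measured as 1 pool in 1 library. No replicate spread exists, no test between conditions was possible, and all intervals cover counting error alone.

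Type II interferon, made mainly by T cells and natural killer cells, switches on guanylate-binding proteins, immunity-related GTPases, antigen presentation genes and the T cell attractants Cxcl9 and Cxcl10. Type I interferon drives antiviral genes such as the Ifit, Oas and Isg15 genes, with much overlap. Monocytes that enter the lung carry Ly6c2, Plac8 and Ccr2, and they lose these and gain C1q expression as they become interstitial macrophages.

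The Tgfbr2-KO pool gave 30729204 UMIs at a median of 10277.5 per kept cell, and the control pool 16298452 UMIs at a median of 7785. The targeted gene, Tgfbr2 (chromosome 9, 116087695 to 116175363, GRCm38), stood at 195 UMIs per 1000000 gene UMIs (UPM) in Tgfbr2-KO cells and 215 UPM in control cells. Counts come from the 3′ end of transcripts and the sources used here do not give the deleted part, so this level does not check the deletion. Lyz2, the locus that carries LyzM-Cre, stood at 5949 UPM in Tgfbr2-KO cells and 13282 UPM in control cells. Within the Tgfbr2-KO pool it was at 6812 UPM in members and 5629 UPM in the other cells.

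The rule genes separated the pools along their whole range. Of Tgfbr2-KO cells 42.6% had 0 UMIs of the 4 rule genes, against 84.7% of control cells. A sum of 1 to 14 was found in 32.1% of Tgfbr2-KO cells and 15.1% of control cells. A sum of at least 15 was reached by 675 Tgfbr2-KO cells (25.2%) and 3 control cells. Of these 675 cells, 105 also had Nos2 and 33 passed the cell cycle limit, which leaves the 537 members. The members thus lie at the upper end of a spread of sums in the Tgfbr2-KO pool, as the plot of rule sums by pool shows.

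**Figure D1:**
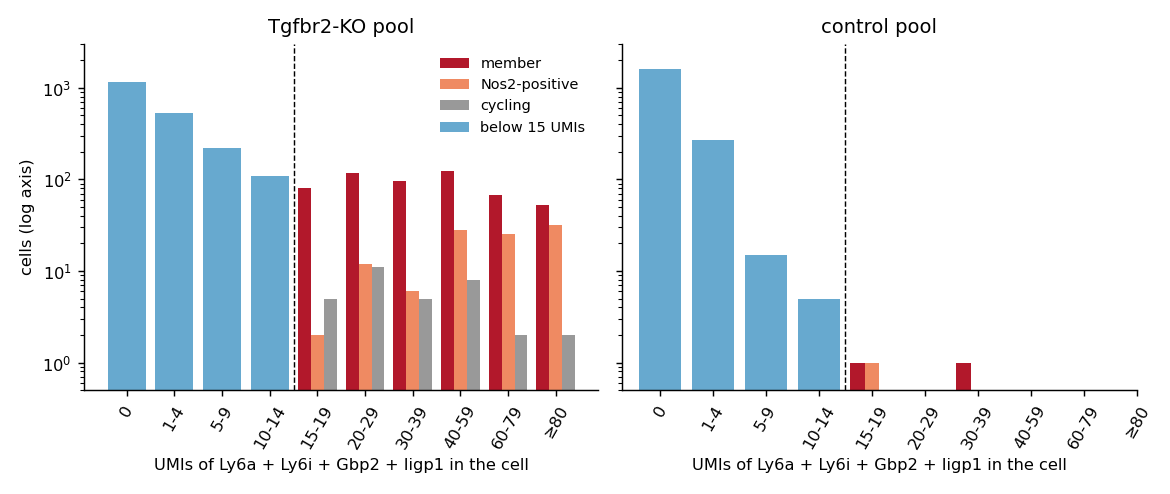
Number of kept cells (log axis) by the UMIs of Ly6a, Ly6i, Gbp2 and Iigp1 summed in the cell, with the Tgfbr2-KO pool on the left and the control pool on the right. Colours give members, Nos2-positive cells, cycling cells and cells below 15 UMIs. The Tgfbr2-KO pool has 675 cells at 15 or above, and the control pool has 3.

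Deeper cells reached the sum more often. Among Tgfbr2-KO cells the share of members was 1.18% at 1000 to 5000 UMIs, 7.35% at 5000 to 10000, 28.8% at 10000 to 15000, 36.5% at 15000 to 20000 and 40.6% above. Among control cells it was 0, 0.0902, 0.284, 0 and 0% in the same depth ranges, with upper bounds between 0.501 and 6.60%. When every cell was thinned to 3000 UMIs and the sum set to 5, 443 of 2591 Tgfbr2-KO cells (17.1%) and 7 of 1816 control cells (0.385%) met the rule, after 83 and 80 shallower cells were left out. Of 535 members deep enough for thinning, 405 (75.7%) met the thinned rule. The difference between the pools was therefore present at equal depth, whereas single cells near the limit changed sides.

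Among Nos2-negative, non-cycling Tgfbr2-KO cells, those on either side of the limit were alike in depth. The 81 such cells with a sum of 15 to 19 had a median of 12791 UMIs and 2.16% mitochondrial UMIs. The 100 such cells with a sum of 10 to 14 had 12766 UMIs and 2.44%. All members had a median of 14362 UMIs, 3303 genes and 1.90% mitochondrial UMIs, against 9100 UMIs, 2519 genes and 2.35% in the other 2137 Tgfbr2-KO cells. Their sum had a median of 36, quartiles of 23 and 56, and a maximum of 139.

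Each member expressed its own mix of the rule genes. Ly6a (chromosome 15, 74994877 to 74998031), which encodes the surface protein Sca-1, had a median of 15 UMIs per member, with quartiles of 5 and 26, and was at 0 in 45 members. Its neighbour Ly6i (chromosome 15, 74979534 to 74983434) had a median of 5 and was at 0 in 161 members. Ly6a and Ly6i are similar in sequence, and reads may be split between them. Gbp2, a guanylate-binding GTPase that acts on vacuoles of intracellular pathogens, had a median of 8 and was at 0 in 41 members. Iigp1, an immunity-related GTPase with a related task, had a median of 2 and was at 0 in 183 members. Cxcl9, which draws T cells through Cxcr3 and was not used by the rule, had a median of 31 UMIs, quartiles of 7 and 86, and was at 0 in 58 members.

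As summed levels, Ly6a stood at 1187 UPM in members, 185 UPM in other Tgfbr2-KO cells and 6.33 UPM in control cells below 15. In members, other Tgfbr2-KO cells and control cells below 15, Ly6i stood at 580, 97.5 and 3.44 UPM, Gbp2 at 654, 175 and 17.7 UPM, and Iigp1 at 380, 79.9 and 4.43 UPM. The other Tgfbr2-KO cells are all non-members, so they include the 105 Nos2-positive and 33 cycling cells at 15 or above. In Tgfbr2-KO cells below 15, the set cut like the control set, Ly6a stood at 62.8, Ly6i at 20.9, Gbp2 at 74.8 and Iigp1 at 30.7 UPM. The members gave 27.1% of the pool's UMIs but 70.5% of its Ly6a, 68.8% of its Ly6i, 58.1% of its Gbp2, 63.8% of its Iigp1 and 61.2% of its Cxcl9. At 3000 UMIs per cell Cxcl9 was detected in 83.0% of members and 20.9% of other Tgfbr2-KO cells, against 2.81% of control cells. RNA free in the droplets held 752 UPM of the rule genes. At most 3.37% of the UMIs summed over all members could be free RNA, which amounts to 0.364 UMIs of the rule genes at the median depth. In Tgfbr2-KO cells below 15 the limit was 9.95%, or 0.656 UMIs of the rule genes at the median depth. The part of free RNA in low sums was not tested. These limits are for the groups and not for each cell. Control cells, from the same library, had a mean sum of 0.309, and those below 15 had 0.274.

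The 2 control cells that met the rule differed from each other. The first had 6562 UMIs, of which Ly6a gave 13, Gbp2 3, Iigp1 2 and Cxcl9 25. The second had 12918 UMIs, of which Gbp2 gave 27, Iigp1 5 and Cxcl9 268, with Ly6a and Ly6i at 0. With so few control cells, no gene comparison was made between genotypes within the members.

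The promoters of Gbp2 and of the chemokine gene Cxcl9 are shown beside those of their neighbours Gbp5 and Cxcl10, because these genes were high together in the members. Sequences are from RefSeq for GRCm38.p6, 250 bases before to 50 after the start, and capitals mark matches on either strand to the gamma-activated site TTCNNNGAA or to the core of the interferon-stimulated response element (GAAA, any 2 bases, GAAA).
Gbp2, chr3:142620413-142620712, plus strand: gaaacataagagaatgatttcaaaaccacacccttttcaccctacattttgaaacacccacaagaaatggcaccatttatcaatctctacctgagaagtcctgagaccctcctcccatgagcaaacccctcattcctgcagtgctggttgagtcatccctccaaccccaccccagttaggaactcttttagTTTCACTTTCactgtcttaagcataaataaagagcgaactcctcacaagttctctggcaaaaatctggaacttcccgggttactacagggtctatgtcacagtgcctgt
Gbp5, chr3:142496684-142496983, plus strand: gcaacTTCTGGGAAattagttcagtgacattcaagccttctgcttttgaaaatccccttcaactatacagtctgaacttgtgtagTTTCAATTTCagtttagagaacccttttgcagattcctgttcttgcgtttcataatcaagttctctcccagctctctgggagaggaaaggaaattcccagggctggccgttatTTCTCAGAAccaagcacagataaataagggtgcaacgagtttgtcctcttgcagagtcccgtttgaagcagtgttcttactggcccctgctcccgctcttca
Cxcl9, chr5:92328030-92328329, minus strand: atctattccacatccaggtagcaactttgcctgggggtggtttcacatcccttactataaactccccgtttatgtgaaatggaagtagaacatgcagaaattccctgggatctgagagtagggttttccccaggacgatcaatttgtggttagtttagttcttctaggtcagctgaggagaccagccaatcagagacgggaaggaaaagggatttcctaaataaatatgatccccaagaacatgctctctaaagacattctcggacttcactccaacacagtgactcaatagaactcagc
Cxcl10, chr5:92348840-92349139, minus strand: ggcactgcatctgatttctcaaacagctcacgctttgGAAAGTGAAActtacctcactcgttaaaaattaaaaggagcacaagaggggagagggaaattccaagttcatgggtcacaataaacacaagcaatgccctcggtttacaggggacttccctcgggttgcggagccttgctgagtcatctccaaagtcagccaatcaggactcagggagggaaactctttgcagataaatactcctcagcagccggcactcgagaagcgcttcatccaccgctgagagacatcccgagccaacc

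Gbp2 holds 1 response element core, beginning 59 bases before the start. Gbp5 holds 2 gamma-activated sites, at 245 and 52 bases before the start, and 1 response element core at 165. Cxcl10 holds 1 response element core at 213 bases before the start, and these letters do not occur in the Cxcl9 window. Over 32851 mouse promoters of the same length, 8.30% hold the gamma-activated site, 3.44% the response element core and 11.3% either. Among the 12 genes with the highest ratio in members, 10 had an entry and 3 of these hold either motif, namely Ifi205, Calhm6 and Serpina3g. Among the 12 with the lowest ratio, 9 had an entry and 1 holds either motif, namely Emp1. A match is a run of letters and not a shown binding site.

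Compared with the other Tgfbr2-KO cells, the members carried more transcripts of interferon-inducible genes and of some classical monocyte genes, and less of macrophage subset, matrix and protease genes. A gene was counted if it had at least 100 UMIs over both groups and at least 100 UPM in one, and was called at a ratio of at least 1.5-fold. Of 1773 counted genes, 212 were called higher (12%) and 234 lower (13.2%). For the gene lists a lower limit of 20 UMIs was used, and there 890 of 11924 genes were higher (7.46%) and 2716 lower (22.8%). The rule used this contrast, so nothing is read from these shares. All 9 guanylate-binding proteins and all 9 immunity-related GTPases were higher, the rule genes Gbp2 and Iigp1 included, and of 22 antiviral genes 13 were higher and 1 lower. Of 13 classical monocyte genes 5 were higher and 3 lower, and of 13 patrolling monocyte genes 2 were higher and 4 lower. Of 13 CD206+ macrophage genes 12 were lower, of 7 CD206-negative macrophage genes 6, and of 11 matrix and protease genes 8, with 1 of the last list higher.

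Outside the rule genes, Cxcl9 had the highest ratio, at 3480 UPM in members and 818 UPM in other Tgfbr2-KO cells, 4.25-fold (4.18 to 4.33). It was followed by Klrk1, the receptor NKG2D, at 106 UPM in members and 25.6 UPM in other Tgfbr2-KO cells, 4.13-fold (3.72 to 4.60). The monocyte surface gene Ly6c2 stood at 594 UPM in members and 154 UPM in other Tgfbr2-KO cells, and the monocyte gene Plac8 at 1375 against 389 UPM. Ass1, which remakes arginine from citrulline, stood at 260 UPM in members and 69.3 UPM in other Tgfbr2-KO cells. The nucleic acid sensor Ifi205 stood at 208 UPM in members and 57.2 UPM in other Tgfbr2-KO cells, and the sensor Zbp1 at 276 against 86.3 UPM. Serpina3g, a protease inhibitor, was 3.49-fold higher, Ms4a4c 3.45-fold, the complement factor Cfb 3.23-fold, the membrane channel gene Calhm6 3.04-fold and the peroxiredoxin Prdx5 2.95-fold.

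At the other end, the heat shock genes Hspa1b and Hspa1a stood at 29.9 and 52.7 UPM in members, against 251 and 352 UPM in other Tgfbr2-KO cells. Mmp9 and Mmp12, which cut matrix proteins, stood at 23.4 and 63.5 UPM in members, against 182 and 473 UPM in the other cells. The growth factor Igf1 was at 32 UPM in members and 152 UPM in other Tgfbr2-KO cells, and the chemokine Pf4 at 243 against 1124 UPM. Emp1, Stmn1, Mt2, Fcrls, Blnk and Gm17268 completed the 12 lowest and were between 3.98-fold and 5.61-fold lower. Stmn1 is high in dividing cells, which the rule removed from the members.

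Markers of most other cell types summed to less in members than in other Tgfbr2-KO cells, except those of dendritic cells. T cell and natural killer markers summed to 11.5 UPM in members and 31.2 UPM in other Tgfbr2-KO cells, with Trac, Cd8a, Gzma and Gzmb at 0 in members. Neutrophil markers summed to 66.1 UPM in members and 170 UPM in other Tgfbr2-KO cells, with Ly6g and Retnlg at 0 in members, and alveolar macrophage markers to 46.4 against 94.6 UPM. Structural cell markers summed to 121 UPM in members and 204 UPM in other Tgfbr2-KO cells. B cell and plasma cell markers summed to 116 UPM in members and 174 UPM in other Tgfbr2-KO cells, most of it Ighm at 83.4 against 158 UPM. Of the 6 of these markers with at least 20 UMIs, 4 were higher in members and 1 lower, and Igkc, at 12.4 UPM in members and 2.05 UPM in other Tgfbr2-KO cells, had a UMI in 1.49% of members. Dendritic markers summed to 348 UPM in members and 229 UPM in other Tgfbr2-KO cells, with Clec9a at 64.7 against 17.9 UPM. Of these 12 markers 5 were higher and 4 lower, and Ccr7 had a UMI in 9.31% of members and 2.85% of the other cells. Flt3, a defining dendritic gene, had a UMI in 3.17% of members and 2.62% of the other cells, and Zbtb46 in 6.89% and 7.21%. Genes that tissue dissociation induces summed to 7674 UPM in members and 12384 UPM in the other cells, with 0 of 13 higher and 10 lower. The part of dissociation in the other differences was not tested.

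By their C1q and Ly6c2 counts, the members held both monocyte-like and macrophage-like cells. C1qa, C1qb and C1qc, the subunits of complement C1q, summed to fewer than 3 UMIs in 135 members (25.1%), to 3 to 9 in 26 (4.84%) and to at least 10 in 376 (70.0%). Of the 135, 86 also had at least 3 UMIs of Ly6c2, as classical monocytes do. Each type of member was set against Tgfbr2-KO cells under the same C1q limits, which do not show that they are the same cell type. The 86 C1q-low members were compared with 80 low-C1q monocytes under the same C1q, Ly6c2 and cell cycle limits, whose rule sum was at most 14. The 376 C1q-high members were compared with 1626 other C1q-positive macrophages below 15 UMIs of the rule genes. The rule thus chose both contrasts, and the shares and list counts in them are given as a description. In clusters made without the rule genes, Nos2 and the cycle genes, 107 of the 135 lay in a cluster of 896 cells. A cluster of 188 cells held 73 of the 80 low-C1q monocytes. Median depths were 12059 and 9470.5 UMIs in the first comparison and 15224 and 8621 UMIs in the second.

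**Figure D2:**
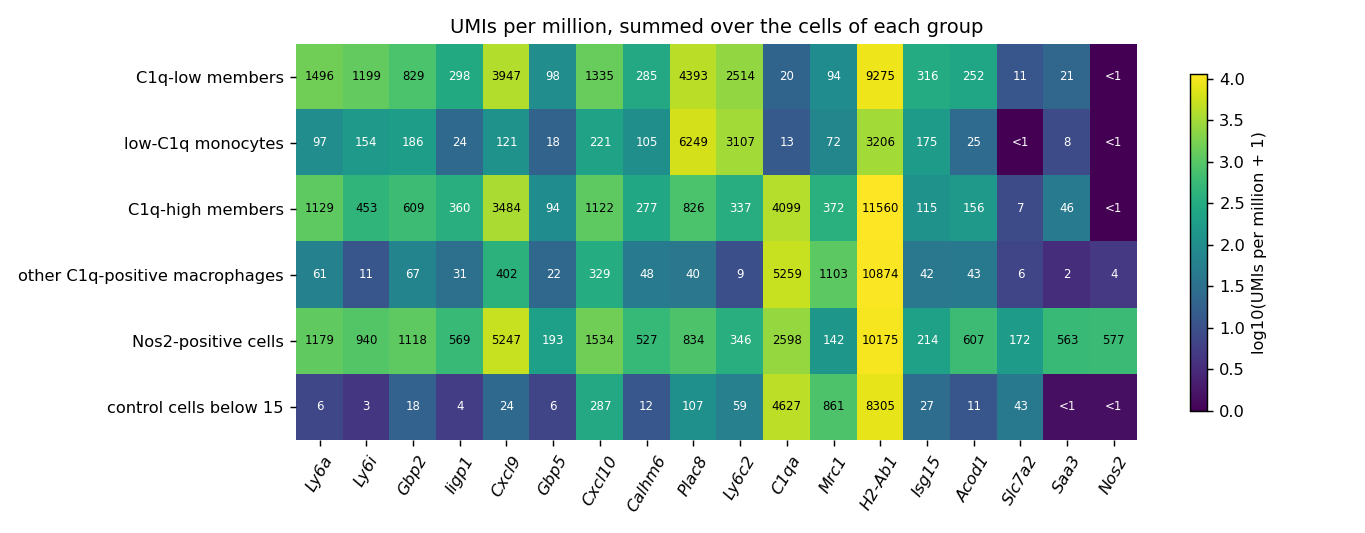
Summed levels of 18 genes, the number in each field and the colour (log10 of UPM + 1) giving the level, in C1q-low members, low-C1q monocytes, C1q-high members, other C1q-positive macrophages, Nos2-positive cells and control cells below 15. Cxcl9 stands at 3947 and 3484 UPM in the C1q-low and C1q-high members, against 121 UPM in monocytes and 402 UPM in macrophages.

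Monocyte-like members had more T cell attractant and antigen presentation transcripts than low-C1q monocytes, but not more antiviral transcripts. Cxcl9 stood at 3947 UPM in C1q-low members and 121 UPM in low-C1q monocytes, 32.7-fold (26.6 to 40.6). Ccl5, a chemokine that attracts T cells, stood at 885 UPM in C1q-low members and 101 UPM in low-C1q monocytes, and Cxcl10 at 1335 against 221 UPM. Together with Cxcl16 all 4 T cell chemokines with at least 20 UMIs were called higher, where 14.8% of 6665 genes were called higher and 17.6% lower. All 8 guanylate-binding proteins were higher, with a median log2 ratio of 1.84 against -0.05 over all genes. Gbp4 stood at 99.6 UPM in C1q-low members and 17.1 UPM in low-C1q monocytes, Gbp5 at 97.7 against 18.4 UPM and Gbp3 at 201 against 118 UPM. The rule gene Gbp2 is among the 8. Of 8 immunity-related GTPases, the rule gene Iigp1 included, 6 were higher and none lower.

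Antigen presentation genes were among those higher in these monocyte-like members. Of 9 class II genes 8 were called higher, with H2-Eb1 at 8148 UPM in C1q-low members and 2299 UPM in low-C1q monocytes and H2-Ab1 at 9275 against 3206 UPM. The cathepsin gene Ctss was level, at 2488 UPM in C1q-low members and 2312 UPM in low-C1q monocytes. Of 20 class I and immunoproteasome genes 14 were higher and 0 lower, with H2-Q7 at 635 UPM in C1q-low members and 248 UPM in low-C1q monocytes and the peptide transporter Tap2 at 198 against 77.5 UPM. Cd274, which encodes the checkpoint ligand PD-L1, stood at 370 UPM in C1q-low members and 56.5 UPM in low-C1q monocytes, and the costimulatory receptor Cd40 at 198 against 53.8 UPM.

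Antiviral genes did not share this direction. They summed to 2356 UPM in C1q-low members and 2803 UPM in low-C1q monocytes. Of 22 antiviral genes 1 was called higher and 7 lower, with a median log2 ratio of -0.32. Isg15, a ubiquitin-like modifier, was the 1 called higher, at 316 UPM in C1q-low members and 175 UPM in low-C1q monocytes. Ifit3 stood at 52.6 UPM in C1q-low members and 137 UPM in low-C1q monocytes and Oas3 at 89.3 against 143 UPM. Ifit3 had a UMI in 27.9% of C1q-low members and 30% of low-C1q monocytes. Among transcription factors Irf1 stood at 231 UPM in C1q-low members and 99.8 UPM in low-C1q monocytes, and Stat3 at 201 against 343 UPM. Ifngr1, the ligand-binding chain of the type II interferon receptor, was 2.22-fold lower, at 195 UPM in C1q-low members and 433 UPM in low-C1q monocytes, whereas Ifngr2 was at 148 UPM in both.

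Itaconate and cytokine genes were higher in these cells as well. Acod1, which makes itaconate, stood at 252 UPM in C1q-low members and 24.9 UPM in low-C1q monocytes, 10.1-fold (6.34 to 17.0). Of 10 genes in the list of inflammatory cytokines 7 were called higher and 0 lower. Among them Tnf stood at 160 UPM in C1q-low members and 45.9 UPM in low-C1q monocytes. Il1rn, which encodes the interleukin 1 receptor antagonist, stood at 665 against 150 UPM. Classical monocyte genes were lower in 7 of 11 and higher in 0, with a median of -1.12. Patrolling monocyte genes were lower in 8 of 11 and higher in 0, with a median of -1.08. The transglutaminase F13a1 stood at 55.5 UPM in C1q-low members and 295 UPM in low-C1q monocytes and the glutathione reductase Gsr at 71.4 against 393 UPM, while Ly6c2 itself was at 2514 against 3107 UPM. The lowest ratio belonged to Fn1, which encodes fibronectin, at 37.6 UPM in C1q-low members and 453 UPM in low-C1q monocytes, 12-fold lower (8.67 to 17.2). Gdf15 was 6.59-fold higher, yet only 4.65% of C1q-low members had a UMI of it, against 7.50% of low-C1q monocytes, so that few cells gave this ratio. In cells of 8000 to 20000 UMIs its log2 ratio was -3.37.

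Macrophage-like members differed from other macrophages in interferon, monocyte and glycolytic genes. Of 11134 genes, 11.8% were called higher and 18.9% lower. All 9 guanylate-binding proteins and all 9 immunity-related GTPases were higher, with median log2 ratios of 1.75 and 2.19 against 0.01 over all genes, the rule genes Gbp2 and Iigp1 included. Here 17 of 21 antiviral genes were higher as well and 0 lower, with a median of 1.14. Ifi44 stood at 26.1 UPM in C1q-high members and 4.60 UPM in other macrophages, and Ifit2 at 40.1 against 8.18 UPM. The transcription factor Irf7 stood at 213 UPM in C1q-high members and 45.4 UPM in other macrophages. Socs1, which limits interferon signalling, stood at 53.1 UPM in C1q-high members and 14.9 UPM in other macrophages.

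Class I genes were higher in macrophage-like members and class II genes were near level. Of 20 class I and immunoproteasome genes 15 were higher and 0 lower, with the proteasome activator subunit Psme2 at 597 UPM in C1q-high members and 170 UPM in other macrophages and Tap1 at 263 against 95.4 UPM. Of 10 class II genes 1 was called higher and 0 lower. H2-Ab1 stood at 11560 UPM in C1q-high members and 10874 UPM in other macrophages, and the invariant chain Cd74 at 24051 against 26914 UPM.

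Monocyte genes were found in C1q-expressing members. Ly6c2 stood at 337 UPM in C1q-high members and 8.94 UPM in other macrophages, 37.7-fold (31.8 to 45), and had a UMI in 44.7% and 2.52% of cells. Plac8 stood at 826 UPM in C1q-high members and 39.8 UPM in other macrophages, Ms4a4c at 267 against 31.5 UPM and Ccr2, the receptor that brings monocytes into tissue, at 380 against 272 UPM. Of 13 classical monocyte genes 9 were higher and 2 lower. C1qa was at 4099 UPM in C1q-high members and 5259 UPM in other macrophages. Undetected doublets, put at 68.0 pairs in the Tgfbr2-KO pool from the hashtag multiplets, can join genes of different cells, and their part was not tested.

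Macrophage identity and chemokine genes were lower. Of 13 CD206+ macrophage genes 12 were lower and 0 higher, with the scavenger receptor Cd163 at 9.22 UPM in C1q-high members and 71.9 UPM in other macrophages and the mannose receptor Mrc1 at 372 against 1103 UPM. Of 14 homeostatic macrophage genes 11 were lower and 0 higher. Of 15 other chemokines 12 were lower and 0 higher, with Ccl24 at 4.86 UPM in C1q-high members and 56.3 UPM in other macrophages and Ccl2 at 934 against 3166 UPM, while Ccl8 was at 2817 against 2220 UPM. The inflammatory gene Tnf stood at 213 UPM in C1q-high members and 435 UPM in other macrophages, and Il1a at 66.0 against 180 UPM. Dissociation genes were lower in 9 of 13 and higher in 0, led by Hspa1b at 30.7 UPM in C1q-high members and 320 UPM in other macrophages, and several chemokines and cytokines of these lists are known to be induced by dissociation, whose part was not tested. In C1q-low members against monocytes the same list had 0 of 13 higher and 2 lower.

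Glycolytic genes were higher in 12 of 16 and lower in 1, with the kinases Pgk1 at 185 UPM in C1q-high members and 78.4 UPM in other macrophages and Pkm at 442 against 200 UPM. Ass1 stood at 237 UPM in C1q-high members and 25.9 UPM in other macrophages and Acod1 at 156 against 42.8 UPM. Genes of the transforming growth factor beta pathway were lower in 7 of 13 and higher in 1, with the integrin chain Itgav, which helps to free the latent ligand, at 98.4 UPM in C1q-high members and 190 UPM in other macrophages. Tgfbr2 itself was at 156 UPM in C1q-high members and 248 UPM in other macrophages. Of 18 target genes 3 were higher and 7 lower, with the feedback inhibitor Pmepa1 at 42.1 UPM in C1q-high members and 114 UPM in other macrophages.

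**Figure D3:**
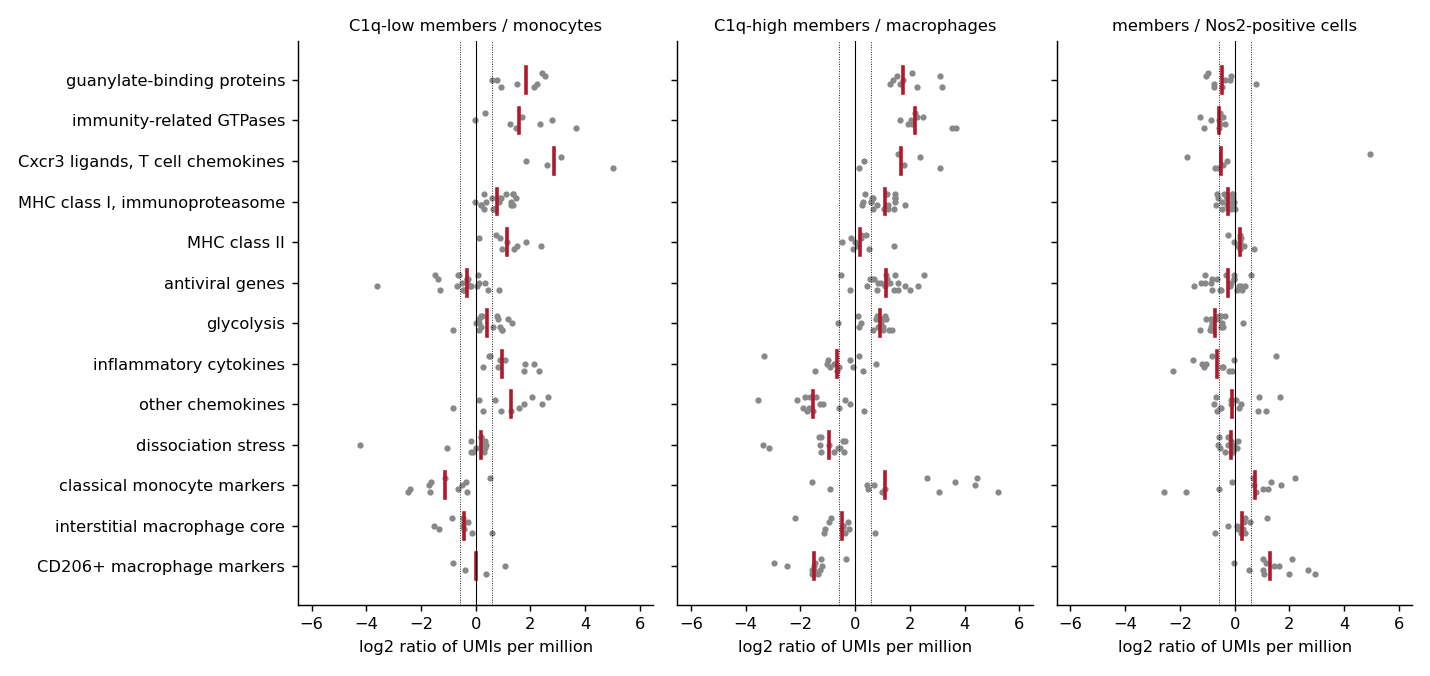
Log2 ratio of UPM for each gene with at least 20 UMIs (grey points) and the list median (red bar) in 13 gene lists, for C1q-low members over low-C1q monocytes, C1q-high members over other C1q-positive macrophages, and members over Nos2-positive cells. Dotted lines mark 1.5-fold. The median of the antiviral genes is -0.32 on the left and 1.14 in the middle, and that of class II genes 1.15 and 0.16.

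The monocyte-like and macrophage-like members were also set against each other. Of 9356 genes, 8.95% were called higher in C1q-low members and 17.2% lower. Cxcl9 was nearly equal, at 3947 UPM in C1q-low and 3484 UPM in C1q-high members, and of 9 guanylate-binding proteins 0 were higher and 1 lower. The antiviral genes were higher in 18 of 21 and lower in 0, with Isg15 at 316 UPM in C1q-low members and 115 UPM in C1q-high members. Of 14 other chemokines 1 was higher and 10 lower, with Ccl8 at 36.7 UPM in C1q-low members and 2817 UPM in C1q-high members. The protease inhibitor Slpi, at 144 UPM in C1q-low members and 16.5 UPM in C1q-high members, and the haemoglobin-binding protein Hp, at 188 against 20.1 UPM, had the highest ratios. C1q and Ly6c2 chose these groups and are not compared.

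The Nos2-positive cells, with at least 1 UMI of Nos2, were chosen by the same limits as the members apart from Nos2. They numbered 105, or 16.4% of the 642 non-cycling Tgfbr2-KO cells at 15 or above. Nos2 was found in 17 of the 1999 cells below 15 (0.850%). Of the 105, 20 had 1 UMI of Nos2 and 85 had 2 or more, with a median of 4 and a maximum of 57. Their rule sum had a median of 62 and their depth a median of 16903 UMIs, against 36 and 14362 UMIs in members. The 105 cells and the members were thus not matched in rule sum or depth, whose part in the differences between them was not tested. A count of 0 in a cell does not show that Nos2 was absent from it.

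Members had lower levels of arginine, itaconate and glycolysis genes than Nos2-positive cells and higher levels of monocyte and CD206+ macrophage genes. Of 1725 counted genes 63 were called higher (3.65%) and 166 lower (9.62%). With at least 20 UMIs, 1211 of 9939 were higher (12.2%) and 886 lower (8.91%). Slc7a2, which imports arginine, stood at 8.53 UPM in members and 172 UPM in Nos2-positive cells, 20.2-fold lower (15.6 to 26.5). The acute-phase gene Saa3 stood at 40.8 UPM in members and 563 UPM in Nos2-positive cells, and Inhba, which encodes the activin A subunit, at 116 against 687 UPM. Saa3 had a UMI in 7.64% of members and 25.7% of Nos2-positive cells. The other 5 lowest, all between 4.71-fold and 5.23-fold lower, were the clotting factor F10, Gm15056, the protein C receptor Procr, the lipid enzyme Acsl1 and the cytokine Il1a.

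Of 7 itaconate and arginine genes 6 were lower and 0 higher, with Acod1 at 180 UPM in members and 607 UPM in Nos2-positive cells and Ass1 at 260 against 400 UPM. Of 16 glycolytic genes 9 were lower and 0 higher. Ccl5 stood at 864 UPM in members and 2879 UPM in Nos2-positive cells and Cd274 at 309 against 722 UPM. A single member held 758 UMIs of Ccl5, while the median member held 2. Of 9 guanylate-binding proteins 1 was higher and 4 were lower, of 9 immunity-related GTPases 0 were higher and 3 lower, and of 22 antiviral genes 0 were higher and 8 lower. Cxcl9 stood at 3480 UPM in members and 5247 UPM in Nos2-positive cells, and Ly6a at 1187 against 1179 UPM.

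Lists with many genes higher in members than in Nos2-positive cells included those of CD206+ macrophages and classical monocytes. Of 12 CD206+ macrophage genes 10 were higher and 0 lower, with a median log2 ratio of 1.29. Of 12 classical monocyte genes 8 were higher and 2 lower. Markers of other cell types moved with them. B cell and plasma cell markers were higher in 5 of 5, summing to 116 UPM in members and 40.2 UPM in Nos2-positive cells, and dendritic markers were higher in 6 of 11 and lower in 1, summing to 348 against 293 UPM. Their part in these differences was not tested. Retnla, a type 2 gene, stood at 397 UPM in members and 25.5 UPM in Nos2-positive cells, 15.6-fold (11.7 to 21.2), but only 10.4% of members and 7.62% of Nos2-positive cells had a UMI of it, and with no limit on the cycle genes the log2 ratio was 0.28. Mgl2, a lectin, stood at 213 UPM in members and 81.5 UPM in Nos2-positive cells, S100a4 at 744 against 299 UPM and the membrane protein Tmem176b at 655 against 271 UPM. Cxcl1, Eps8, Slc9a9 and Ckb completed the 8 highest, between 2.50-fold and 3.17-fold. Ccr2 stood at 393 UPM in members and 170 UPM in Nos2-positive cells and Ifngr1 at 175 against 88.0 UPM.

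Levels of some genes changed stepwise with the rule sum in Nos2-negative, non-cycling Tgfbr2-KO cells. In 6 ranges of the sum (0, 1 to 4, 5 to 14, 15 to 29, 30 to 49, and 50 or more) there were 1105, 496, 299, 198, 160 and 179 cells, and median depth was 15587 UMIs in the last range, against 7623 in the first. Cxcl9 stood at 54.0, 384, 1102, 2329, 3268 and 4743 UPM in these ranges. Plac8 stood at 122, 531, 778, 1154, 1085 and 1829 UPM. Mrc1 stood at 1203, 902, 733, 461, 329 and 115 UPM. Pmepa1 stood at 135, 78.2, 55.3, 40.1, 25.5 and 44.0 UPM. So for these genes the limit of 15 cut through gradual changes, although Plac8 and Pmepa1 did not keep their direction at every step. Other genes did not follow the sum. Il1b stood at 3311, 3103, 2403, 3147, 2713 and 3950 UPM, and H2-Ab1 was nearly level, at 9925 UPM in the first range and 10848 UPM in the last. The ranges were not matched in depth. In control cells Cxcl9 stood at 7.88 UPM with 0 UMIs of the rule genes and 54.5 UPM with 1 to 4.

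**Figure D4:**
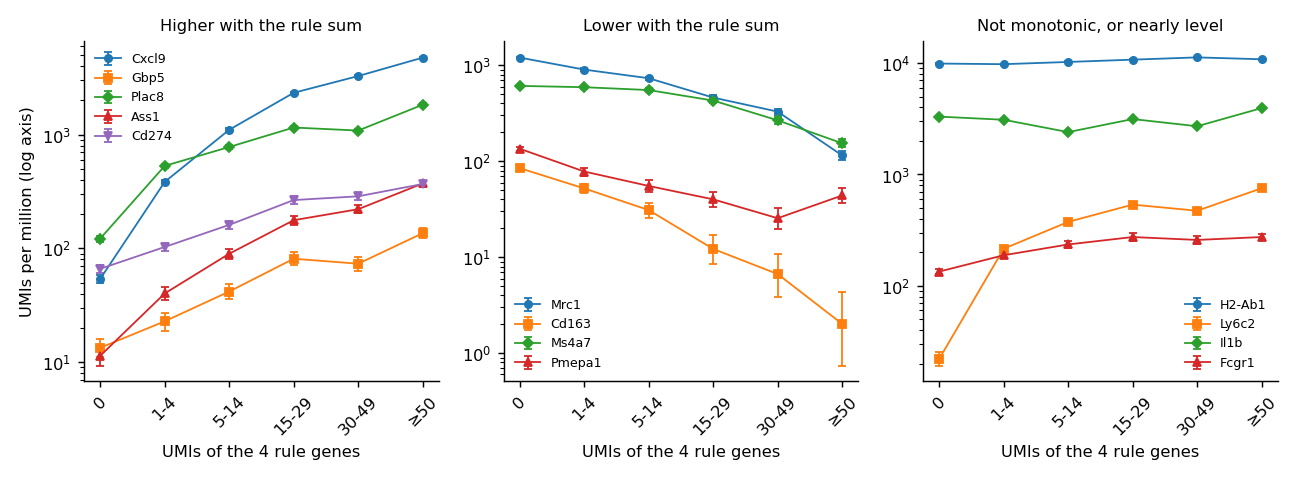
UPM (log axis, bars are exact Poisson 95% intervals) against the range of the rule sum for 13 genes in Nos2-negative, non-cycling Tgfbr2-KO cells. The panels hold genes higher with the sum, genes lower with it, and genes not monotonic or nearly level. Cxcl9 stands at 54.0 UPM at a sum of 0 and 4743 UPM at 50 or more, and Mrc1 at 1203 and 115 UPM.

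Among the members themselves Cxcl9 again rose and Mrc1 again fell. They were divided into 3 equal parts of 179 cells by the share of their UMIs that came from the rule genes. Cxcl9 stood at 2346, 3379 and 5134 UPM in the lowest, middle and highest part, and Mrc1 at 449, 234 and 158 UPM. The share of cells with fewer than 3 UMIs of C1q was 11.7, 29.1 and 34.6%. Median depth fell over these parts, at 17260, 13915 and 12764 UMIs, and shallower cells meet such a raw limit more easily. The part of depth in these shares was not tested. Ccl5 did not follow, at 991, 546 and 1045 UPM, and Cd74 was nearly even at 22623, 22908 and 21941 UPM. The uridine phosphorylase Upp1 had the highest ratio of the highest part over the lowest, 9.51-fold, at 125 UPM in the highest and 13.2 UPM in the lowest part, and Socs1 stood at 102 against 26.4 UPM.

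Most members lay in one cluster when cells were clustered without the rule genes, Nos2 and the cycle genes. That cluster had 896 cells, 874 Tgfbr2-KO and 22 control, and held 447 members (83.2%) and 98 of the 105 Nos2-positive cells. Members made up 51.1% of its Tgfbr2-KO cells. It was led by Saa3, Gm15056, Cxcl9, Cfb and Ccl5. A cluster of 188 cells led by S100a9, Ace and S100a8 held 26 members and 73 of the 80 low-C1q monocytes, and 25 members lay in a cluster of 373 cells. Of the 135 members with fewer than 3 UMIs of C1q, 107 lay in the cluster of 896 cells and 22 in that of 188. With all variable genes kept, the members were split between a cluster with 61.8% of them and another with 24.6%. Of the same 135 members, 113 then lay in the former and 14 in the cluster with most low-C1q monocytes. Since the same cells and their interferon genes made the clusters, this placement is a description.

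**Figure D5:**
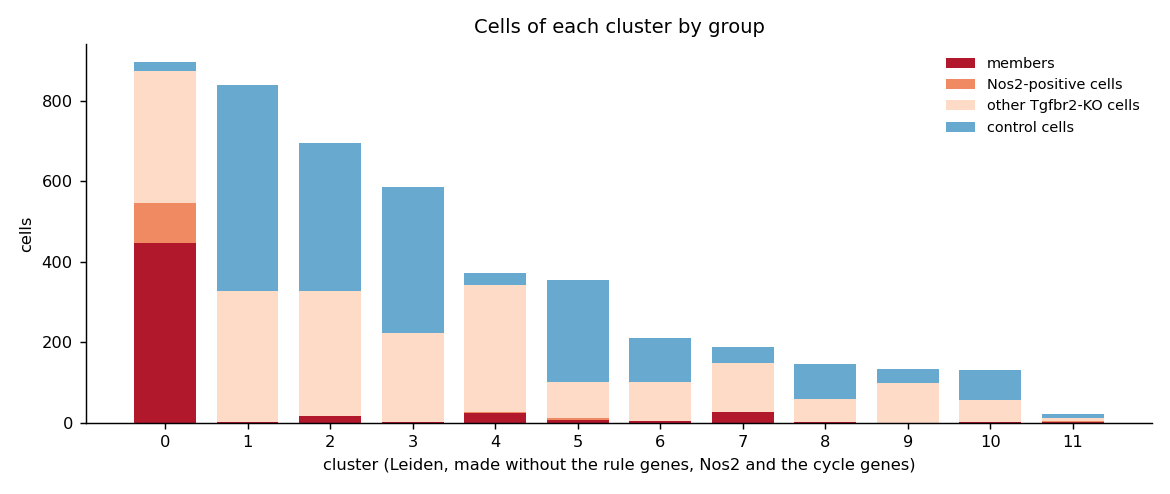
Number of cells in each cluster made without the rule genes, Nos2 and the cycle genes, split into members, Nos2-positive cells, other Tgfbr2-KO cells and control cells. Cluster 0 holds 447 of the 537 members and 98 of the 105 Nos2-positive cells.

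Cells that the rule left out also differed between the genotypes. In cells below 15 UMIs of the rule genes, 1999 Tgfbr2-KO and 1893 control, 98 of 1659 counted genes were called higher in Tgfbr2-KO cells (5.91%) and 85 lower (5.12%). With at least 20 UMIs, 1542 of 12229 were higher (12.6%) and 782 lower (6.39%). Cxcl9 stood at 377 UPM in these Tgfbr2-KO cells and 23.5 UPM in control cells, 16.0-fold (14.5 to 17.8). All 9 guanylate-binding proteins and all 8 immunity-related GTPases were higher, the rule genes Gbp2 and Iigp1 included. So were 21 of 22 antiviral genes and 17 of 20 class I and immunoproteasome genes, with 0 lower in each list. Class II genes were 0 of 10 higher and 0 lower. Receptor and kinase genes of interferon signalling were also 0 of 7 in either direction, with Ifngr1 at 195 UPM in these Tgfbr2-KO cells and 185 UPM in control cells.

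The type 2 gene Retnla was higher too, at 1315 UPM in Tgfbr2-KO cells and 189 UPM in control cells, and so was the monocyte chemokine Ccl8, at 1830 against 333 UPM. Inhba stood at 94.9 UPM in Tgfbr2-KO cells and 3.69 UPM in control cells. Among genes lower in Tgfbr2-KO cells, Fn1 stood at 103 UPM in Tgfbr2-KO cells and 535 UPM in control cells, the lipid receptor Trem2 at 168 against 430 UPM and Pmepa1 at 101 against 246 UPM. Of 18 target genes of transforming growth factor beta 1 was higher and 6 were lower. Ifng, the gene of type II interferon, had 0 UMIs in members but was detected in Tgfbr2-KO cells below 15. T cell and natural killer markers summed to 34.0 UPM in these Tgfbr2-KO cells and 33.0 UPM in control cells below 15. The sort was not aimed at the cells known to make Ifng, so its source was not measured. With 1 pool for each genotype, the genotype and anything else that differed between the pools cannot be told apart.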

How the data were processed

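Per the submitters' processing notes, Cell Ranger 8.0 and Seurat 5.1.0 were used with GRCm38. The sources used here do not name the annotation version. The deposited matrix holds UMI counts for 22597 genes in 1172636 barcodes of 1 library with both pools, per the file headers. The deposited hashtag table gives each of 4887 called cells a fraction, the posterior probability of each of 4 states, and hashtag UMIs as log10 of the count plus 1. The 4671 cells assigned to 1 hashtag were used, of which 101 failed the cell limits. The 96 hashtag multiplets were left out, which implies 68.0 undetected pairs of Tgfbr2-KO cells (2.48% of those assigned), and no doublet caller was run.

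UMIs were summed over the cells of a group and divided by the group's gene UMIs (UPM). Intervals at 95% were exact Poisson for levels, conditional binomial for ratios and Clopper-Pearson for shares. Named genes were the 12 highest and 12 lowest counted genes of members against other Tgfbr2-KO cells, the 8 of each end in other comparisons, and from each list the 3 highest and 2 lowest with at least 100 UMIs. Mitochondrial, ribosomal, sex-linked and rule genes were left out of the ranking. Other genes named were chosen after their values were seen. List counts used at least 20 UMIs. Members, lists and the comparisons split by C1q were chosen with earlier results of these data known. Clusters used 2000 variable genes, 30 components, 15 neighbours and Leiden (leidenalg 0.10.2) at resolution 0.8. Python 3.11.15, numpy 2.4.6, scipy 1.17.1, pandas 2.3.3, scikit-learn 1.9.0 and matplotlib 3.10.9 were used, and ratios were tested on simulated data.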

Additional observations from a re-analysis of the deposited data

Results flagged for a closer look

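Cells outside the comparisons also met the member rule. Of 96 droplets with both hashtags, 16 met it (16.7%, Clopper-Pearson interval 9.84 to 25.6), against 20.1% of Tgfbr2-KO cells and 0.105% of control cells. It was listed because it lies above the share in control cells, and such droplets carry the hashtags of both pools. These droplets had a median of 17053.5 UMIs, and among Tgfbr2-KO cells of 15000 to 20000 UMIs the share was 36.5%. Of 54 cells with no hashtag 1 met it, and of 66 cells without a clear assignment 1 met it.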

How the results depend on the processing

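The share of members among Tgfbr2-KO cells, 20.1%, was 23.8% with a sum of at least 10, 14.4% with at least 25, 17.5% with at least 15 per 10000 UMIs, 17.1% after thinning and 26.6% in cells of 8000 to 20000 UMIs. The share in control cells, 0.105%, was 0.385% after thinning. With a limit of 20 UMIs in place of 100, the genes called higher and lower numbered 890 and 2716 for members against other Tgfbr2-KO cells, 1211 and 886 against Nos2-positive cells, 1542 and 782 for Tgfbr2-KO against control cells below 15, 986 and 1175 for C1q-low members against low-C1q monocytes, 1317 and 2099 for C1q-high members against other macrophages, and 837 and 1610 for C1q-low against C1q-high members. With the limit of 100 the last 3 comparisons gave 257 and 284, 284 and 262, and 141 and 157. At 2-fold they numbered in the same order 47 and 100, 20 and 64, 34 and 24, 115 and 121, 96 and 107, and 40 and 75. After thinning, 119 genes were higher in members than in Nos2-positive cells, and 96 were higher and 84 lower in C1q-low members than in low-C1q monocytes. Leaving out cells with any UMI of the rule genes gave 54 higher genes for Tgfbr2-KO against control cells. That alternative and the removal of cells above 30000 UMIs were added after seeing the data. The other results stayed within 1.5 times of their value. For the highest and lowest genes of each comparison, 1 ratio changed direction under up to 17 settings, that of Gdf15 in C1q-low members against low-C1q monocytes (log2 ratio 2.72, and -3.37 in cells of 8000 to 20000 UMIs). For members against other Tgfbr2-KO cells the rule genes were counted together with the highest and lowest genes. Of these 28 genes 27 stayed past 1.5-fold in all settings, but the rule itself raised the ratios of the rule genes. Against Nos2-positive cells 15 of 16 of the highest and lowest genes stayed past it. The other genes named from the lists were not recomputed. With the cells outside the rule limited to those with 0 UMIs of the rule genes, fewer than 20 low-C1q monocytes were left and no value was computed. The gene comparison between genotypes within members was not run because the control pool had 2. No paired analysis was possible because each genotype is 1 pool.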
